A study of Mus musculus with 12 samples.

Results

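The clustered protocadherins are cell-surface adhesion genes that lie in 3 neighbouring arrays on mouse chromosome 18, named Pcdha, Pcdhb and Pcdhg. Members were all rows of the count table whose Ensembl identifier has a mouse symbol beginning with one of those names. The rule found 55 of the 25674 genes in the table: 13 Pcdha, 21 Pcdhb and 21 Pcdhg genes. GENCODE release M21 annotates 58 such genes, and Pcdha4, Pcdhb1 and Pcdhga10 were not analysed here. Both ENSMUSG00000007440 and ENSMUSG00000102206 carry the symbol Pcdha11 in that release, so these genes are given by identifier. By position, the start of the first lies nearest that of Pcdha10 in RefSeq and the start of the second nearest that of Pcdha11.

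RNA was sequenced from spiral ganglion neurons, the cells that relay sound from the cochlea to the brain, at embryonic stage E14.5. Each of 12 libraries held 100 tdTomato-positive cells sorted by flow cytometry from both inner ears of 1 embryo, of either sex and a mixed C57BL/6/sv129 background. The 6 control embryos were Neurod1Cre;Rosa26tdTOM, and the 6 embryos labelled ISL1CKO (written Isl1CKO here) were Neurod1Cre;Isl1loxP/loxP;Rosa26tdTOM. All 12 therefore carried a Neurod1-Cre transgene and the tdTomato reporter, and Cre acted in any cell that had expressed the transgene. The embryos came from several litters, and the labels do not tie a sample to a litter. A label tag calls the sample numbers technical replicates while the design text calls the samples biological replicates, so p-values measure the spread between these libraries.

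Clustered protocadherins bind copies of themselves on a neighbouring cell and give each neuron a surface identity. A single neuron usually expresses a small, partly random choice of Pcdha, Pcdhb and Pcdhg genes, and contact between branches of 1 neuron, which display the same set, leads to repulsion, known as self-avoidance. Each gene has its own promoter and a large variable exon. In Pcdha and Pcdhg that exon is spliced to constant exons shared by the whole cluster, while each Pcdhb gene is a separate unit. The C-type genes Pcdhac1, Pcdhac2, Pcdhgc3, Pcdhgc4 and Pcdhgc5 at the ends of the Pcdha and Pcdhg arrays are regulated apart from the others, and many neurons express some of them regularly. In samples of pooled cells, fewer cells using a gene and less RNA per cell cannot be told apart.

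Library totals ran from 11895603 to 13857480 counts. Isl1 RNA was 1538 ± 217 CPM (SD, n = 6; a CPM value is a gene's count scaled to a common library size with edgeR's TMM factors) in controls and 1391 ± 184 in Isl1CKO, a difference that did not pass the test (log2 fold change -0.15, SE 0.11, edgeR quasi-likelihood adjusted p = 0.460). The count covers the whole gene, so RNA that lacks only the floxed part is counted too. Isl1CKO 2, 3 and 5 held both Xist RNA (62.9 to 132 CPM) and RNA of Y-linked genes (a mean of 35.7 to 87.3 CPM), which RNA of a single embryo would not normally hold together, and results are given with and without these 3 libraries where they matter. Control 3 had 1.65% mitochondrial counts against 1.05% to 1.18% in the other controls. The 10 neuronal markers summed to 11030 to 13597 CPM in controls and 11692 to 14088 in Isl1CKO, with Tubb3 at 2769 CPM or more in every library; by edgeR Neurod1 and Stmn2 were higher and Gata3, Ntrk2, Ntrk3 and Elavl4 lower in Isl1CKO. Schwann and glial markers summed to 9.54 to 157 CPM in controls and 16.6 to 220 in Isl1CKO, and macrophage markers to 1.48 to 347 and 0.656 to 730 CPM. None of the 4 Schwann and 8 macrophage markers that could be tested was called by edgeR, DESeq2 or limma-voom or had an unadjusted edgeR p under 0.05, and several were at 0 in some libraries. Their fitted log2 fold changes nevertheless all lay above 0, with medians of 1.07 for the 4 Schwann and 1.64 for the 8 macrophage markers. Of 8 mesenchymal markers 4 were tested. By edgeR Tbx18 and Col3a1 were higher in Isl1CKO; Col1a2 (log2 fold change 1.83, adjusted p = 0.0602; called by DESeq2) and Pou3f4 (-0.95, adjusted p = 0.143) were not called. The part of these cells in the results below was not tested beyond the values given with them.

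All 3 clusters had a higher mean summed level in Isl1CKO, and the groups did not overlap for Pcdha and Pcdhb. The 55 genes together summed to 490.4 ± 63.0 CPM (SD, n = 6) in controls and 650.4 ± 67.7 CPM in Isl1CKO, a ratio of 1.33. No control reached the lowest Isl1CKO library, but the gap was narrow, 535.3 CPM in control 1 against 536.5 CPM in Isl1CKO 3. A sum over chosen genes was given no p-value.

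The Pcdha genes summed to 75.3, 68.9, 67.7, 65.0, 58.6 and 75.0 CPM in controls 1 to 6. In Isl1CKO 1 to 6 they summed to 79.4, 100.4, 79.0, 89.5, 99.7 and 88.3 CPM. The groups did not overlap, and the means of 68.4 ± 6.32 and 89.4 ± 9.35 CPM stood 1.31-fold apart, a log2 ratio of 0.39. That separation rested partly on 1 gene: without Pcdha2 the log2 ratio was 0.33 and the groups overlapped. With each tested gene weighted equally, as the mean of log2(CPM + 1), the difference was 0.24 and the groups overlapped again. Without Isl1CKO 2, 3 and 5 the log2 ratio of the sums was 0.33 and the groups stayed apart.

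The Pcdhb genes held most of the counts. They summed to 348.0, 322.5, 222.2, 297.7, 345.0 and 286.4 CPM in controls 1 to 6, and to 412.1, 468.9, 372.6, 417.0, 384.5 and 457.3 CPM in Isl1CKO 1 to 6. Every Isl1CKO library lay above every control, and control 3 was the lowest of the 12. The means were 303.6 ± 46.9 and 418.7 ± 38.4 CPM, 1.38-fold apart, a log2 ratio of 0.46. Without Isl1CKO 2, 3 and 5 the log2 ratio was 0.50, and without Pcdhb17, the gene with the most counts, it was 0.44; the groups stayed apart both times. With each tested gene weighted equally, as the mean of log2(CPM + 1), the difference was 0.49 and the groups overlapped.

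The Pcdhg genes summed to 112.0, 138.6, 76.4, 129.9, 114.2 and 139.0 CPM in controls 1 to 6. In Isl1CKO 1 to 6 the sums were 146.0, 144.1, 85.0, 143.9, 154.9 and 180.2 CPM. The groups overlapped because Isl1CKO 3 lay below all controls except control 3. The means of 118.4 ± 23.6 and 142.4 ± 31.3 CPM gave a ratio of 1.20, a log2 ratio of 0.27. This value depended on single libraries: it was 0.38 with the groups apart without Isl1CKO 3, 0.17 without control 3, and 0.41 with the groups apart without Isl1CKO 2, 3 and 5. Control 3 and Isl1CKO 3 also held the lowest value of 14 and 11 of the 55 genes.

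**Figure D1:**
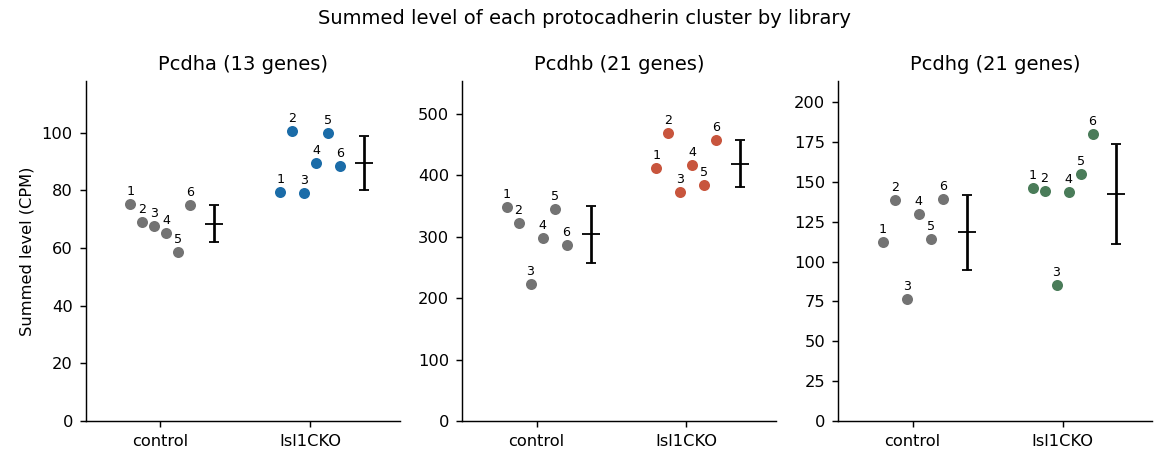
Summed level of each cluster in each library, in CPM on a linear axis from 0. Numbers are replicate numbers, which are not known to pair the samples, and bars beside the points are the mean ± SD of 6 libraries. Pcdha and Pcdhb sums do not overlap between the groups, whereas library 3 of each group lies low for Pcdhg.

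Gene by gene, little passed a test. Of the 55 genes, 53 passed the filter on low counts, and 1 was called at an adjusted p under 0.05 (edgeR quasi-likelihood test, Benjamini-Hochberg over all tested genes): Pcdhb20, which rose. Among all 14813 tested genes 10.2% were called, 5.01% as higher and 5.19% as lower in Isl1CKO, so called genes were no more frequent among the clustered protocadherins, at 1.89%, than among genes in general. At an unadjusted p under 0.05 the count was 7 of 53, all Pcdhb genes with a higher level in Isl1CKO, beside 23.3% of all tested genes, 11.6% as higher. No member had groups that did not overlap, against 6.78% of tested genes (3.13% as higher in Isl1CKO). The direction was less evenly spread: 43 of 53 fitted log2 fold changes (81.1%) lay above 0 beside 50.4% of all tested genes, and their median was 0.45 beside 0.0045. With no filter, 45 of 55 lay above 0 and the median was 0.44. With Schwann and macrophage marker levels as covariates the count was 36 of 53 and the median 0.29. These genes share 1 chromosome region and the same 12 libraries, and they are not independent observations.

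**Figure D2:**
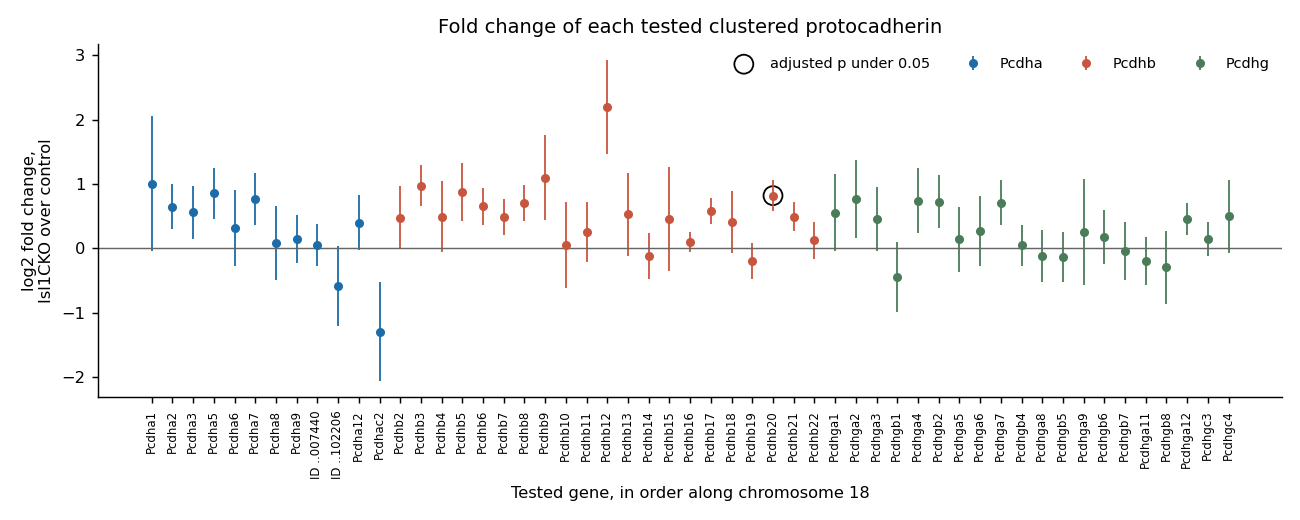
Fitted log2 fold change of Isl1CKO over control for the 53 tested genes, in order along the chromosome; error bars are 1 SE. Most points lie above 0 with wide errors, and only Pcdhb20, circled, has an adjusted p under 0.05.

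In Pcdhb, whose genes each encode a complete adhesion protein without the shared constant part, 19 of 21 fold changes lay above 0, with a median log2 fold change of 0.49. Pcdhb20 (ENSMUSG00000046191; GRCm38 chromosome 18, 37504264 to 37507822) ranged from 18.8 to 40.5 CPM in controls, with a median of 24.4. In Isl1CKO it ranged from 31.2 to 71.8 CPM, with a median of 47.8. Controls 1 and 5 lay above the lowest Isl1CKO libraries, 5 and 2, so the groups overlapped although the means, 27.3 ± 8.75 and 48.1 ± 15.5 CPM, stood apart. The log2 fold change was 0.82 (SE 0.24, edgeR adjusted p = 0.0421). This call was at the edge of the threshold: over 21 alternative fits the adjusted p ran from 0.00872 to 0.114 and passed in 8, while the log2 fold change stayed between 0.67 and 0.96. The call was lost without Isl1CKO 2, 3 and 5 (log2 fold change 0.89, adjusted p = 0.0683), with Schwann and macrophage marker levels as covariates (0.75, adjusted p = 0.0964), and on leaving out any of 8 single libraries: Isl1CKO 1, 3, 4 or 6 or control 2, 3, 4 or 6 (adjusted p = 0.0546 to 0.0949).

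Other Pcdhb genes came near the threshold. Pcdhb3 ranged from 5.26 to 15.1 CPM in controls (median 11.0) and from 10.0 to 33.5 CPM in Isl1CKO (median 19.3). Isl1CKO 1, 2, 4 and 6 were above all controls, library 2 only just, and Isl1CKO 3 and 5 were within the control range. Its log2 fold change was 0.98 (SE 0.32, edgeR adjusted p = 0.0675), and it moved both ways in other fits: to 1.44 without Isl1CKO 2, 3 and 5 (adjusted p = 0.0146), and to 0.56 with the Schwann and macrophage covariates (adjusted p = 0.473). Pcdhb12 was scarce, from 0.0732 to 2.06 CPM in controls (median 0.425) and from 0.713 to 4.89 CPM in Isl1CKO (median 3.48). Isl1CKO 1 was the only Isl1CKO library below the highest control, and the log2 fold change was the largest of all members, 2.19 (SE 0.73, edgeR adjusted p = 0.0751). Without Isl1CKO 2, 3 and 5 it was 1.69 (adjusted p = 0.426). Of its 3034 exonic bases, 1927 overlap the opposite-strand gene Gm37446, and without stated strand use their reads cannot be told apart.

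Pcdhb17 ranged from 38.5 to 60.4 CPM in controls (median 50.1) and from 40.5 to 102 CPM in Isl1CKO (median 69.6). Isl1CKO 2 and 6 stood well above the rest, and Isl1CKO 3 was within the control range (log2 fold change 0.58, SE 0.20, edgeR adjusted p = 0.0832). It passed without Isl1CKO 3, at 0.70 with an adjusted p of 0.0150, and was furthest from the threshold with the Schwann and macrophage covariates, at 0.50 with an adjusted p of 0.365. Pcdhb21 ranged from 20.3 to 43.0 CPM in controls and from 29.9 to 62.0 CPM in Isl1CKO, with medians of 39.0 and 48.3 (log2 fold change 0.49, edgeR adjusted p = 0.199; 0.23 with the covariates, adjusted p = 0.714). Pcdhb16, with a level per length among the highest, showed little difference: 25.4 to 48.5 CPM in controls and 34.8 to 45.6 CPM in Isl1CKO (log2 fold change 0.09, SE 0.16, edgeR adjusted p = 0.777). Pcdhb17, Pcdhb20 and Pcdhb21 made up 21.1%, 18.1% and 12.0% of the difference between the mean Pcdhb sums, and Pcdhb3 8.82%. Only Pcdhb14 and Pcdhb19 had a log2 fold change below 0, at -0.12 and -0.20, and both were far from the threshold.

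In Pcdha, 0 of 12 tested genes were called by edgeR, DESeq2 or limma-voom, and 0 had an unadjusted edgeR p under 0.05; 10 of 12 log2 fold changes lay above 0, with a median of 0.36. Pcdha2 ranged from 5.18 to 23.0 CPM in controls (median 10.6) and from 9.74 to 23.0 CPM in Isl1CKO (median 19.5). Control 4 equalled the highest Isl1CKO library at this precision while controls 2 and 6 were low, and the log2 fold change of 0.65 had an SE of 0.35 (edgeR adjusted p = 0.287). Pcdha2 alone made up 31.7% of the difference between the Pcdha sums, Pcdha7 20.4%, Pcdha3 20.2% and Pcdha5 16.8%. Pcdha5 had the smallest p of the cluster (1.82 to 7.89 CPM in controls, 3.20 to 12.3 CPM in Isl1CKO; log2 fold change 0.85, SE 0.40, edgeR adjusted p = 0.214; 0.55 with the Schwann and macrophage covariates). Pcdha7 (2.33 to 11.0 against 6.10 to 18.7 CPM) and Pcdha3 (2.59 to 18.3 against 9.33 to 20.6 CPM) had log2 fold changes of 0.77 and 0.56, which were 0.42 and 0.35 without Isl1CKO 2, 3 and 5 and 1.26 and 0.41 with the covariates. ENSMUSG00000007440 was nearly level, at 9.41 ± 2.96 and 9.71 ± 3.62 CPM (log2 fold change 0.04).

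In Pcdhg, 0 of 20 tested genes were called by any of the 3 tools, and 0 had an unadjusted edgeR p under 0.05. The A and B subfamilies, which alternate along the array and are set apart by the sequence of their variable exons, had medians of 0.45 and -0.04: 9 of 11 A genes and 3 of 7 B genes had a log2 fold change above 0. The difference between subfamilies was not tested. Pcdhga7 ranged from 2.89 to 14.0 CPM in controls (median 7.22) and from 5.65 to 18.6 CPM in Isl1CKO (median 12.4), with a log2 fold change of 0.71 (SE 0.35, edgeR adjusted p = 0.237). With the Schwann and macrophage covariates it was 0.11 (adjusted p = 0.925). Pcdhga12 ranged from 5.73 to 14.1 CPM in controls and from 10.1 to 19.7 CPM in Isl1CKO (0.45, SE 0.25, edgeR adjusted p = 0.307; 0.77 with the covariates, adjusted p = 0.195). Pcdhgb2 (0.951 to 4.07 against 2.86 to 6.48 CPM) differed by 0.73 on the log2 scale (edgeR adjusted p = 0.310). Pcdhgb6 (4.92 to 14.7 against 2.41 to 20.7 CPM) and Pcdhgb4 (3.25 to 8.72 against 3.03 to 7.54 CPM) had log2 fold changes of 0.18 and 0.05, with wholly overlapping ranges, and lay below 0 with the covariates, at -0.29 and -0.23.

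The C-type genes differed among themselves in level, and none was called. Pcdhgc3, an isoform widely used in neurons, was the most abundant of them per length, with a range of 9.18 to 21.6 CPM in controls and 7.68 to 22.3 CPM in Isl1CKO (log2 fold change 0.14, SE 0.26, edgeR adjusted p = 0.800; -0.12 with the Schwann and macrophage covariates). In each group library 3 was the lowest. Part of its exonic sequence, 1559 bases, overlaps the opposite-strand gene BC037039. Pcdhgc4, which is known for supporting neuron survival, ranged from 0.740 to 9.18 CPM in controls and from 1.88 to 6.13 CPM in Isl1CKO. Its high control value came from library 3 alone (log2 fold change 0.50, edgeR adjusted p = 0.662). This fold change was unsteady, at 0.29 to 1.28 over 20 alternative fits, of which 0 called the gene. Pcdhac2, linked to the branching and tiling of serotonergic axons, had the lowest fold change of the 53 genes. It ranged from 0.793 to 6.48 CPM in controls (median 3.28) and from 0.0776 to 4.36 CPM in Isl1CKO (median 0.792), with Isl1CKO 1, 3 and 4 inside the control range (log2 fold change -1.30, SE 0.77, edgeR adjusted p = 0.343). Isl1CKO 2 and 5 were lowest, at 0.0776 and 0.146 CPM. Over the alternative fits the log2 fold change ran from -2.07 to -0.81. The edgeR adjusted p was highest, at 0.680, without Isl1CKO 2, 3 and 5. Pcdhac1 (0 to 2.84 against 0.381 to 2.17 CPM) and Pcdhgc5 (0 to 1.35 against 0 to 3.81 CPM) did not pass the filter and were not tested.

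Levels can be compared between genes only per length, here as the mean CPM over the 12 libraries per kilobase of exonic sequence that a gene shares with no other gene. On that scale the medians of the clusters were close, 2.62 for Pcdha, 2.39 for Pcdhb and 2.54 for Pcdhg. The highest levels were those of Pcdhb17 (13.1 CPM per kilobase), Pcdhb20 (10.6), Pcdhb21 (9.61) and Pcdhgc3 (9.12). Pcdhgc3 fell to 4.91 if sequence on the opposite strand is not treated as shared. Pcdhb16 (7.23), Pcdhb7 (6.84), Pcdhb11 (6.81) and Pcdha2 (6.01) followed, and Pcdhgc5 (0.178), Pcdhac1 (0.347) and Pcdha1 (0.410) were lowest. If opposite-strand sequence is not treated as shared, ENSMUSG00000102206 moves from 0.917 to 0.252 and is second to Pcdhgc5 among the lowest.

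How the authors' counting treated the constant exons matters for Pcdha and Pcdhg. Pcdha1 had 0 counts in 3 libraries in which Pcdha2, which shares the constant exons, had 70 counts or more, so reads in the constant exons were not credited to every member. The values then reflect mostly each gene's own variable exon. Variable exons resemble each other: of 75-base windows of each gene's own sequence, 15 of the 55 genes had none that recurred in another member, 30 had more than 1% and 7 more than 10%, with the highest share, 13.9%, in Pcdha7. Reads from such windows could go to either gene or be dropped. For Pcdhb20 and Pcdhb3 the shares were 1.69% and 0.727%.

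**Figure D3:**
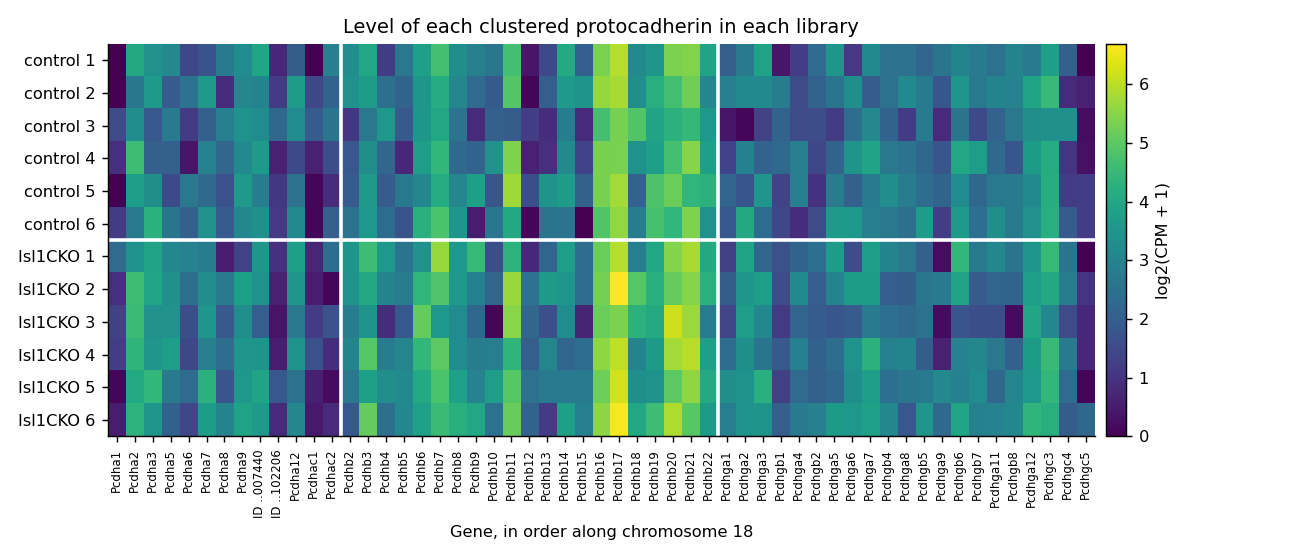
Level of each of the 55 genes in each library as log2(CPM + 1), genes in order along the chromosome and libraries by group; white lines part the groups and the clusters, and the genes marked ID are those that share the symbol Pcdha11. Pcdhb16, Pcdhb17, Pcdhb20 and Pcdhb21 are high in all 12 libraries, while a single gene such as Pcdhb11 is dark in control 3 and bright in control 5.

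A pool of 100 neurons still covered nearly all of the 55 genes. These are the members analysed out of 58 annotated. No gene in the count table totalled under 10 counts, so scarcer members could not appear here. Of the absent genes, Pcdhga10 has 0 and Pcdha4 404 exonic bases shared with no other gene, while Pcdhb1 has 2588. Why these genes are absent was not tested. Between 52 and 55 of the 55 genes had more than 3 counts in each library, and only Pcdha1, Pcdhac1, Pcdhb15 and Pcdhgc5 were at 0 in any. The effective number of genes in use, the exponential of the Shannon entropy of the shares of counts, was 9.07 ± 1.30 (SD, n = 6) in controls and 8.84 ± 0.51 in Isl1CKO for Pcdha. It was 13.6 ± 0.41 and 13.9 ± 1.02 for Pcdhb and 16.1 ± 0.80 and 16.3 ± 1.41 for Pcdhg. Each pair of means differed by less than the spread between libraries. Pcdhb17 had the most counts of its cluster in 10 of 12 libraries, Pcdhgc3 in 9 and Pcdha2 in 7. The exceptions were spread over both groups, for example Pcdhb20 in Isl1CKO 3 and Pcdhb21 in control 4; counts also scale with exon length.

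Single genes varied widely from library to library. The median coefficient of variation of a gene's CPM within a group was 58.1% in controls and 44.0% in Isl1CKO, whereas counting error alone gave a median of 10.9%. edgeR's dispersion, the variance beyond counting, was compared with the trend for genes of the same level. The gene's own dispersion was above the trend for 29 of 53 members (54.7%), beside 30.3% of all tested genes and 32.7% of the 10371 tested genes within the members' range of level. The median ratio to the trend was 1.06 for members, 0.752 for all tested genes and 0.776 within that range; it was 1.23 in Pcdhb, 1.00 in Pcdha and 0.908 in Pcdhg. A ratio above that of all tested genes was not particular to the clusters. The median was 2.06 for non-clustered protocadherins and 1.24 for the neuronal markers. It was 0.713 for chromatin regulators, 0.794 for signalling partners and 0.741 for flanking genes, the lists described below. No test was made of these differences, and the gene-level dispersions are drawn toward the trend by the method.

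Pcdhb11 stood furthest above the trend, with a ratio of 3.84. Its counts ran from 35 to 654, and its level from 2.92 CPM in control 3 to 51.8 CPM in control 5, while counting error for it was 5.04%. In Isl1CKO it ranged from 19.1 to 49.2 CPM, so the groups overlapped almost entirely (log2 fold change 0.25, edgeR adjusted p = 0.793). Pcdha1 followed with a ratio of 2.67 (0 to 1.92 CPM in controls, 0.0729 to 4.04 CPM in Isl1CKO). Pcdhb9 had a ratio of 2.10, with 0.439 to 12.8 CPM in controls and 3.69 to 21.5 CPM in Isl1CKO. The lowest ratios belonged to Pcdhgb4 (0.477), Pcdhgb2 (0.503) and Pcdhga12 (0.539). Pcdhb16 was also steady, with coefficients of variation of 22.9% and 12.5% in the groups.

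**Figure D4:**
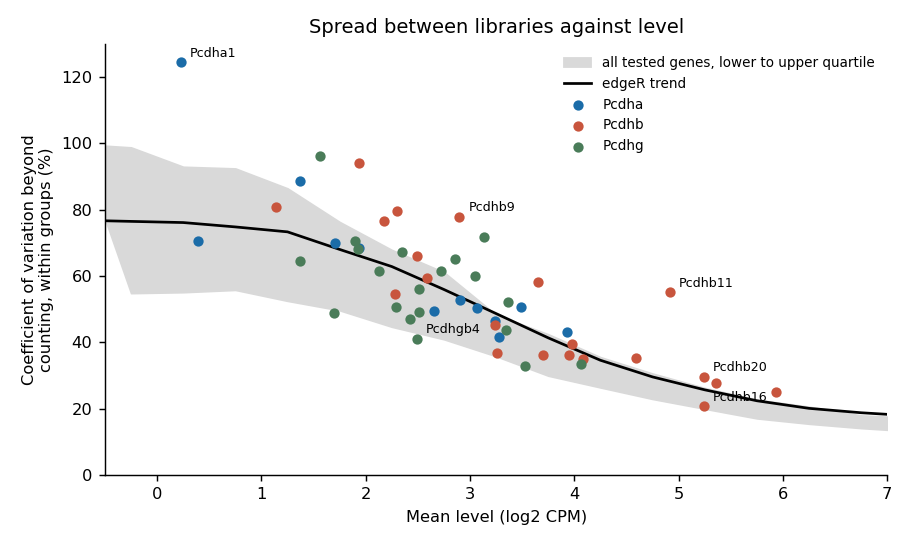
Coefficient of variation beyond counting (the square root of edgeR's gene dispersion, within groups, in percent) against mean log2 CPM; coloured points are the 53 tested members, the line is edgeR's trend and the grey band spans the lower to the upper quartile of all tested genes at each level. Pcdhb11, Pcdha1 and Pcdhb9 lie far above the band and Pcdhgb4 near its lower edge.

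The sums over a cluster varied less than single genes, but not always as independent genes would. Sums had coefficients of variation of 9.24% and 10.5% (control, Isl1CKO) for Pcdha, 15.5% and 9.16% for Pcdhb and 19.9% and 22.0% for Pcdhg. The variance of the Pcdhg sum was 2.80 times the sum of its members' variances in controls and 4.27 times in Isl1CKO. Pcdhg genes thus tended to be low or high together, with library 3 of each group the low one. Library 3 also had the lowest Pcdhb sum of each group (222.2 and 372.6 CPM). Over all genes, control 3 differed from the other controls by a chi-square of counts per gene of 39.6 to 52.2. Other control pairs differed by 21.5 to 30.5. Pairs with Isl1CKO 3 differed by 32.1 to 46.7, and other Isl1CKO pairs by 20.9 to 33.5. Whether the shared movement is particular to Pcdhg was not tested. For Pcdha the ratio of variances was 0.288 and 0.667, below the 1 that independent genes would give. For Pcdhb it was 2.35 and 0.892. With 6 libraries per group these ratios are descriptions with a wide error.

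Among genes that act on the clusters, 1 of 30 chromatin regulators was called, and it is a repressor of them. Smchd1 (ENSMUSG00000024054), a structural chromatin protein known to silence clustered protocadherin promoters and the inactive X chromosome, rose. It ranged from 86.5 to 125.9 CPM in controls and from 212.6 to 285.1 CPM in Isl1CKO, and the groups did not overlap. Means were 112 ± 15.6 and 255 ± 26.4 CPM (SD, n = 6; log2 fold change 1.19, SE 0.10, edgeR adjusted p = 3.01e-06). It passed in all 21 alternative fits, without Isl1CKO 2, 3 and 5 too, with log2 fold changes of 1.12 to 1.26. Smchd1 and the summed Pcdha and Pcdhb levels were thus all higher in the same 6 libraries, and no test relates them.

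Ctcf, the factor that binds clustered protocadherin promoters and their enhancers, was close to level (46.0 ± 11.3 and 47.8 ± 9.94 CPM; log2 fold change 0.06, SE 0.18, edgeR adjusted p = 0.893). So were Rad21, a subunit of the cohesin ring that brings promoter and enhancer together (log2 fold change -0.03, SE 0.10), and Nipbl, which loads cohesin (-0.09, SE 0.07). Of 32 tested signalling, processing and binding partners, edgeR called 3, all lower. DESeq2 called these 3 with Fyn, Ret and Nckap1, 6 in total, and limma-voom called 5. Fyn and Ret were higher in Isl1CKO (log2 fold changes 0.65 and 0.67, edgeR adjusted p = 0.101 and 0.0629). Prkcd, a protein kinase C of the family that acts in Pcdhg signalling to the cytoskeleton, ranged from 142 to 186 CPM in controls and from 75.8 to 111 CPM in Isl1CKO (log2 fold change -0.82, SE 0.10, edgeR adjusted p = 1.11e-04). Psenen, a subunit of the gamma-secretase that cleaves protocadherins, fell from 55.0 ± 7.39 to 40.1 ± 4.31 CPM (-0.46, edgeR adjusted p = 0.0238), and its call was lost without Isl1CKO 2, 3 and 5 (-0.52, adjusted p = 0.0747) and with the covariates (-0.39, adjusted p = 0.210). Brk1, a subunit of the WAVE actin-regulating complex, differed by -0.33 on the log2 scale (SE 0.10, edgeR adjusted p = 0.0408) and passed in 9 of 21 alternative fits. The regulators and partners together had 4 called of 62 (6.45%), below the 10.2% of all tested genes.

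Among genes lying beside or between the clusters, neither direction prevailed. By edgeR, 0 of 16 tested flanking genes were called (1 by DESeq2 and 1 by limma-voom), 2 had an unadjusted p under 0.05, and 9 of 16 had a log2 fold change above 0, with a median of 0.07. Those 2, named after their values were seen, were Taf7, which lies between Pcdhb and Pcdhg (0.33, edgeR adjusted p = 0.116), and Rell2 (-2.76, edgeR adjusted p = 0.0606), the gene that DESeq2 called. The non-clustered protocadherins, single genes outside the arrays, are given for comparison: 9 of 11 tested were called, 8 higher and 1 lower, with a median log2 fold change of 1.63. The difference between these lists was not tested.

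**Figure D5:**
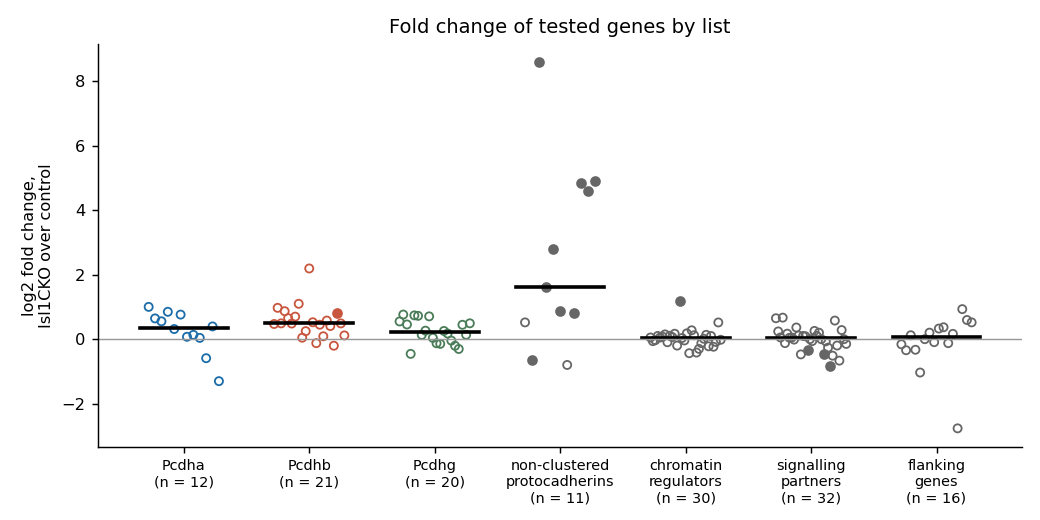
Fitted log2 fold change of Isl1CKO over control of each tested gene in the 3 clusters and 4 related lists; filled points have an edgeR adjusted p under 0.05 and black lines are medians. The clusters sit slightly above 0 with 1 filled point, and the non-clustered protocadherins spread far upward. Most regulators and flanking genes sit near 0, with Smchd1 well above it and the flanking gene Rell2 far below it.

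The genes whose levels followed a cluster most closely from library to library within groups were named by the Pearson correlation of deviations from the group means over 12 libraries, among 14760 genes. For the Pcdhg sum these were C130046K22Rik (0.978), Clptm1 (0.972) and Ccar2 (0.937). For Pcdhb they were Tbc1d32 (0.969), Sec22b (0.956) and Spty2d1 (0.935), and for Pcdha Kcna4 (0.914), Gm45220 (0.871) and Dhx16 (0.865). With so many genes and 12 libraries that share depth and cell content, high values arise readily, and they are given as a description only.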

How the data were processed

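Per the submitters' processing notes the tools were cutadapt 1.18, Bowtie 1.2.2, STAR 2.7.0c and featureCounts, with build GRCm38.p6; strand use and the annotation release are not given in the sources used here. The authors deposited whole-number counts per Ensembl gene, not normalized, for 12 libraries; the smallest gene total was 10. Symbols, exons and coordinates came from GENCODE M21 on GRCm38, which may not be the release used for counting.

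Counts of all genes were fitted with edgeR 4.0.16 (R 4.3.3): filterByExpr with a minimum count of 10, TMM scaling, robust quasi-likelihood F-test of Isl1CKO against control without covariates, Benjamini-Hochberg over all tested genes, threshold 0.05. The SE is the absolute log2 fold change over the square root of F. A level at or under 3 counts (0.219 to 0.250 CPM) was taken as the floor, for counting error only; PCR reads without molecular identifiers are not independent molecules. Scripts were tested on simulated data. There 14.4% of DESeq2 calls were false at the same threshold, against 4% of edgeR and 3.45% of limma-voom calls, so genes called by DESeq2 alone are less certain. No 2 libraries of a group agreed within sampling noise.

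Alternatives were DESeq2 1.42.0, limma-voom (limma 3.58.1), other scalings and filters, covariates, a replicate block and left-out libraries. The members and lists were chosen with earlier results of these data known. Named members were those called, the 3 smallest p-values and the 3 highest counts per cluster, the C-type genes, and the 3 highest and 3 lowest dispersion ratios; named regulators were called genes with the smallest p-values and Smchd1, Ctcf, Rad21 and Nipbl. Hair cell markers summed to 4.98 to 17.4 CPM in controls and 3.21 to 19.6 CPM in Isl1CKO, mesenchymal markers to 38.4 to 84.0 and 63.9 to 114 CPM, and the red blood cell marker Alas2 to 1.41 to 4.00 and 1.01 to 5.87 CPM. Atoh1 and haemoglobin genes were not analysed here.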

Additional observations from a re-analysis of the deposited data

Results flagged for a closer look

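In all, 60 groups of 6 values were checked: the named members, the cluster sums and the effective numbers of genes in both genotypes. Of these, 3 held 1 library far from the other 5. For independent, normally distributed values chance gives about 1 in 20, or 3.0. That number is only a rough guide here. The values share libraries, and some members, Pcdha1 among them, were named for their high dispersion in these data. Pcdha1 was at 4.04 CPM in Isl1CKO 1 against 0.0729 to 1.43 CPM in the other Isl1CKO libraries. The C-type gene Pcdhgc4 was at 9.18 CPM in control 3 against 0.740 to 3.16 CPM in the other controls. The C-type gene Pcdhgc5 was at 3.81 CPM in Isl1CKO 6 against 0 to 1.01 CPM in the other Isl1CKO libraries. Each came from a different library.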

How the results depend on the processing

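The number of called members, 1 in the main analysis, was 4 with the DESeq2 Wald test (Pcdhb3, Pcdhb12, Pcdhb17 and Pcdhb20), 2 with a filter of at least 5 CPM on the mean, and 0 with no filter, with Schwann and macrophage covariates or with the replicate block; the cause was not tested. It stayed at 1 without Isl1CKO 2, 3 and 5, but the gene was then Pcdhb3, and with limma-voom it was Pcdhb12. Leaving out 1 library at a time gave 0 to 2 calls. Regulators and partners called, 4 in the main analysis, were 7 with the DESeq2 Wald test and 2 without Isl1CKO 2, 3 and 5, and 2 to 5 on leaving out 1 library. The Pcdha difference was 0.24 as a mean of log2(CPM + 1), where each gene counts equally. Leaving out 1 library gave log2 ratios of 0.34 to 0.42 for Pcdha, 0.39 to 0.51 for Pcdhb and 0.17 to 0.38 for Pcdhg; leaving out each cluster's most abundant gene was added after the data were seen. Of all genes, 2082 were called by DESeq2, 867 with the covariates and 767 without Isl1CKO 2, 3 and 5, against 1511 in the main analysis. Members with a log2 fold change above 0 numbered 36 of 53 with the covariates, with a median of 0.29, and 39 of 53 with the replicate block. Deviations of same-numbered libraries were weakly correlated (-0.056 to 0.152), and the own number matched best in 2 of 6, replicates 3 and 5. Such correlations over all genes cannot decide whether the numbers pair the samples, and the labels do not tie a sample to a litter. A shared effect of a number was not tested further. With the replicate block 1450 of all genes were called. Of 604 alternative values of the named genes, 566 kept their side of the threshold, 9 passed it, 29 lost it, and 22 changed sign, none of a called gene. Counting error was 27.6% of the level for Pcdha1 and 30.5% for Pcdhgc5, among the scarcest members, against 100% to 136% between libraries of a group.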
